A study of Mus musculus with 4 samples.

Results

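The genes described here are 4 chemokine genes that Tc (T cells) transcribe, Ccl3, Ccl4, Ccl5 and Xcl1, chosen by symbol out of the 32285 genes counted in each library. Their transcripts were counted in single spleen Tc, and the level of each was compared between Tc states, between CD8+ and CD4+ Tc of the same mouse, and between 2 donor genotypes. Of 11507 single cells kept, 6810 belonged to Tc clusters, with 4280 CD8+ Tc (a Cd8a or Cd8b1 transcript and no Cd4 transcript) and 1766 CD4+ Tc (the reverse). A further 224 Tc had both kinds of transcript, 540 had neither, and 4697 cells lay in clusters in which at most 50% of cells had a Cd3 transcript (non-Tc clusters) and served as the comparison for free RNA, although Tc had been isolated before loading.

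Lethally irradiated BALB/c mice had received WEHI-3B cells (a BALB/c myelomonocytic leukemia line), BM from C57BL/6 donors and, on day 2, donor spleen Tc. BM and Tc came from Havcr2fl/fl donors (n = 2 recipients) or from Havcr2fl/fl;E8icre/+ donors (n = 2 recipients). Both genotypes carry the floxed Havcr2 alleles, and only the latter carries the E8i-driven cre, which is meant to delete Havcr2, the gene of the inhibitory receptor TIM-3, in the CD8+ lineage. Spleens were collected on day 23, and Tc were isolated with a pan-Tc kit and tagged with an oligo-labelled Ab against the donor haplotype H-2Kb, 1 library per mouse.

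Chemokines are small secreted proteins that guide leukocytes along gradients by G protein-coupled receptors. CCL3 and CCL4 (MIP-1α and MIP-1β) and CCL5 (RANTES) are made by activated and cytotoxic lymphocytes and attract monocytes, NK cells and activated Tc, with CCL3 and CCL5 acting on CCR1 among other receptors. XCL1 (lymphotactin) acts on XCR1, a receptor of cross-presenting conventional dendritic cells, and is known as a product of NK cells and of stem-like CD8+ Tc.

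Ccl3 (ENSMUSG00000000982, chr11:83647844-83649355, minus strand), Ccl4 (ENSMUSG00000018930, chr11:83662584-83664683, plus strand) and Ccl5 (ENSMUSG00000035042, chr11:83525778-83530518, minus strand) lie in 1 chemokine cluster of GRCm38, with 13228 bases between Ccl3 and Ccl4 and 117325 bases between Ccl3 and Ccl5. Xcl1 (ENSMUSG00000026573, chr1:164931644-164935527, minus strand) lies apart. RefSeq promoter sequences were at hand for Ccl3 and Xcl1 only. The 150 bases upstream of both RefSeq starts are shown on the gene's strand, at chr11:83649379-83649528 and chr1:164935523-164935672 of GRCm38.p6. Capitals mark matches to the NFAT core GGAAA, here on the opposite strand.
Ccl3: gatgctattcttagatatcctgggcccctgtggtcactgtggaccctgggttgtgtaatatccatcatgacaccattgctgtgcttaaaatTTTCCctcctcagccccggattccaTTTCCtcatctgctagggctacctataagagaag
Xcl1: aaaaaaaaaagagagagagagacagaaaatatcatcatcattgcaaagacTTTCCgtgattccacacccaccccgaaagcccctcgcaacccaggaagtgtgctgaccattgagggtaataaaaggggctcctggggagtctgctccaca
The core was matched 2 times upstream of Ccl3 and 1 time upstream of Xcl1, and 37.6% of 32851 RefSeq promoters held it in the same window. On either strand, the AP-1 site TGANTCA (4.24% of promoters) and the TCF/LEF core ATCAAAG (1.80%) were matched in neither window. No matched motif overlapped another.

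The libraries held 1511 to 6737 barcodes and 17693991 to 55045903 transcript counts (unique molecular identifiers, UMIs, each standing for 1 captured molecule, so that levels need no correction for gene length). Havcr2, the targeted gene, was at 61.2 and 7.86 UMIs per 1000000 gene UMIs (CPM) in CD8+ Tc of Havcr2fl/fl;E8icre/+ replicates 1 and 2, and at 54.8 and 114 CPM in those of Havcr2fl/fl replicates 1 and 2. The library labelled Havcr2fl/fl;E8icre/+ replicate 1 thus lay within the Havcr2fl/fl range, and the genotype comparisons are given with and without it. Where the deleted part lies relative to the 3′ end that the assay reads is not stated in the sources used here. Pairs of libraries shared 1 to 10 cell barcodes, and called doublets (125 cells) were removed. In what follows, 4 values in a row refer to Havcr2fl/fl;E8icre/+ replicates 1 and 2 and then Havcr2fl/fl replicates 1 and 2.

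Clustering, from which all chemokine ligand genes were left out, gave 10 clusters of CD8+ Tc and 6 of CD4+ Tc. Among CD8+ Tc, 696 cells were TTEX-like, that is, resembling terminally exhausted Tc, with Tox, Pdcd1, Lag3, Eomes and Nr4a2 raised. A further 575 were TPEX-like, resembling the precursor exhausted Tc that renew them, with Tcf7, Slamf6, Id3 and Il7r raised. Another 246 were short-term effector-like. Cycling cells formed one cluster led by Mcm genes (386 cells) and one by histone genes (354 cells). The remaining large CD8+ clusters reached no marker-based name and are called by leading genes: Ckb/Itga1 (1138 cells), Gzmk/Ctla2a (437 cells, with Gzmb, Gzmk and Prf1 raised) and Klf2/Cx3cr1 (376 cells). CD4+ Tc comprised a Serpina3f/Pdcd1 cluster (936 cells), precursor memory-like cells (309), an Ifitm1/Ly6c2 cluster (242), cycling cells (152) and Treg-like cells (109). Small further clusters had erythroid RNA (42 CD8+ and 18 CD4+ cells) or interferon-stimulated genes raised (30 CD8+ cells). At a higher resolution, 334 CD4+ Tc formed a cytotoxic cluster with Gzmb, Gzmk, Prf1, Nkg7 and Eomes raised. Its leading genes included Ccl3, Ccl4 and Ccl5. Without integration between libraries, 243 cells formed such a cluster. How many of these cells lay in the Serpina3f/Pdcd1 cluster was not counted. Since the clusters come from the same cells' other genes, differences between clusters are described without a test.

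Each chemokine peaked in a particular Tc state. Among clusters of at least 10 cells in a library, Ccl3 and Ccl4 were highest in TTEX-like cells in 4 of 4 libraries (for Ccl4, 3 of 4 without 1 cell). Ccl5 was highest in the Gzmk/Ctla2a cluster in 4 of 4, and Xcl1 was highest in TPEX-like cells in 3 of 4. TPEX-like cells, highest for Xcl1, were among the lowest CD8+ states for the other 3 genes. Without integration between libraries, no CD8+ cluster was named TTEX-like. An unnamed cluster led by Glp1r and Ccl3 then had 630 of its 913 cells from Havcr2fl/fl replicate 2.

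**Figure D1:**
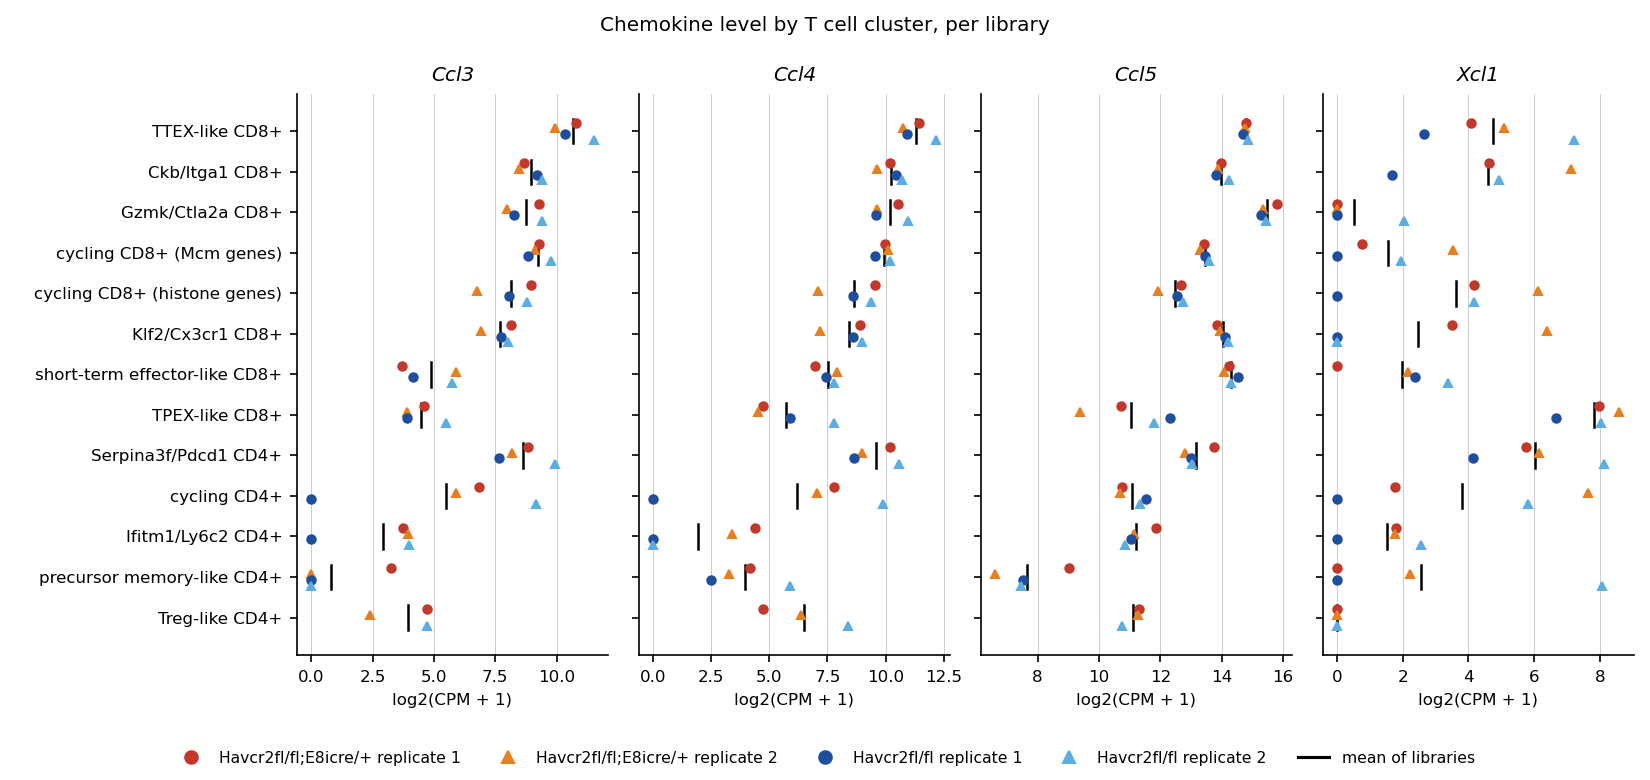
Level of each chemokine (x axis, log2(CPM + 1)) in 13 Tc clusters (rows), with 1 point per library holding at least 10 cells of the cluster and a bar at the mean of those points. TTEX-like cells stand to the right for Ccl3 and Ccl4, the Gzmk/Ctla2a cluster for Ccl5 and TPEX-like cells for Xcl1, where Havcr2fl/fl replicate 2 also shows high points in CD4+ clusters.

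Ccl3, which encodes a ligand of CCR1, was at 1787, 986, 1300 and 2913 CPM in TTEX-like cells. The next highest cluster of at least 10 cells in each library was lower by a factor of 1.79 to 2.84. In Havcr2fl/fl;E8icre/+ replicate 2, a cluster of 9 CD8+ cells with erythroid RNA was higher still, at 1335 CPM. In Havcr2fl/fl replicate 1, however, 305 of the 734 Ccl3 UMIs of TTEX-like cells came from 1 cell, and the level without it was 778 CPM. Cycling cells led by Mcm genes (456 to 867 CPM), the Ckb/Itga1 cluster (351 to 683) and the Gzmk/Ctla2a cluster (249 to 685) followed with overlapping ranges. Klf2/Cx3cr1 cells, which carry genes of circulating effector cells, were lower, with 120 to 279 CPM. TPEX-like cells had 22.9, 13.9, 13.8 and 43.9 CPM, and short-term effector-like cells had 12.1 to 59.3 CPM, so that both lay below every other large CD8+ cluster in every library. Among CD4+ Tc, Ccl3 was found mainly in the Serpina3f/Pdcd1 cluster, with 458, 285, 199 and 975 CPM. Ccl3, Ccl4 and Ccl5 were among the 10 genes of that cluster with the highest fold over the other CD4+ Tc. Precursor memory-like CD4+ cells had 2 Ccl3 UMIs in one library and none in the other 3, which allows levels of up to 3.66 to 19.6 CPM there.

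Ccl4, which encodes an attractant of monocytes and Tc, followed a similar order with a less steep drop. TTEX-like cells had 2736, 1736, 1927 and 4553 CPM, above all other clusters of at least 10 cells in each library, by a factor of 1.39 to 1.85 over the next. In Havcr2fl/fl replicate 1, 358 of the 1088 Ccl4 UMIs of TTEX-like cells came from 1 cell, and without it their level, 1323 CPM, was below the 1382 CPM of the Ckb/Itga1 cluster (1138 CPM without that cluster's own highest cell). The Ckb/Itga1 cluster had 1181, 794, 1382 and 1692 CPM and the Gzmk/Ctla2a cluster 1477, 797, 779 and 1980.5 CPM, 2 ranges that overlap almost wholly. Short-term effector-like cells, nearly free of Ccl3, still had 125 to 241 Ccl4 CPM. The ratio of Ccl4 to Ccl3 UMIs differed between some states: it was 1.48 to 1.76 in TTEX-like cells, 2.38 to 3.20 in the Gzmk/Ctla2a cluster and 4.06 to 10.3 in short-term effector-like cells. The first and second of these ranges do not overlap. The third rests on 3, 17, 4 and 11 Ccl3 UMIs, and in Havcr2fl/fl replicate 2 all 11 came from 1 cell. TPEX-like cells, with 7 to 19 Ccl3 UMIs per library, had ratios of 1.11 to 5.06. In CD4+ Tc, the Serpina3f/Pdcd1 cluster had 1161, 509, 403 and 1552 CPM, whereas precursor memory-like cells had 4.68 to 58.7 CPM.

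Ccl5, a hallmark transcript of effector and memory CD8+ Tc, had the widest distribution. The Gzmk/Ctla2a cluster had 57727, 41282, 39573 and 44578 CPM, and TTEX-like cells, second in each library, had 28592, 27640, 26667 and 29383 CPM. The TTEX-like values lay within a narrow range, and none of them reached the lowest value of the Gzmk/Ctla2a cluster. Short-term effector-like cells (17436 to 23474 CPM), Klf2/Cx3cr1 cells (14850 to 18964) and Ckb/Itga1 cells (14543 to 19322) followed with overlapping ranges. Cycling cells led by Mcm genes had 9914 to 12322 CPM and those led by histone genes 3891 to 6821 CPM. TPEX-like cells were the lowest large CD8+ cluster in each library, with 1685, 668, 5095 and 3506 CPM, and with the 2 Havcr2fl/fl;E8icre/+ libraries below the 2 Havcr2fl/fl libraries. How many of all genes part the genotypes in this way was not counted. Treg-like cells were broadly but weakly positive: after thinning to 2000 UMIs a cell, 66.7%, 86.5% and 92.3% of them had a Ccl5 UMI in the 3 libraries with at least 10 such cells, at 1714 to 2553 CPM. In comparison, 40.8% to 64.1% of Serpina3f/Pdcd1 CD4+ cells had one, at 7198 to 13796 CPM.

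Xcl1, the XCR1 ligand, was highest in TPEX-like cells, at 250, 383, 100 and 261 CPM. Without thinning, an Xcl1 UMI was found in 32.4% (95% Wilson interval 25.8 to 39.7), 46.3% (39.6 to 53.2), 17.1% (10.3 to 27.1) and 19.5% (13.5 to 27.4) of TPEX-like cells, intervals that cover counting error only. A single cell gave 15.8% to 37.3% of the Xcl1 UMIs of the cluster in each library, and without it the levels were 208, 325, 63.7 and 170 CPM. Trdc, the constant gene of the TCR δ chain and a marker of γδ Tc, was at 10.8, 38.8, 11.8 and 4.88 CPM in TPEX-like cells and at most 4.16 CPM in any other CD8+ cluster, with its highest value in the library with the highest Xcl1. The part of γδ Tc in the Xcl1 level was not tested. The neighbouring values fell far lower in most libraries: the Ckb/Itga1 cluster had 23.7, 139, 2.17 and 29.7 CPM and TTEX-like cells 15.7, 33.0, 5.31 and 146 CPM. In TTEX-like cells of Havcr2fl/fl replicate 2, 93 of 128 Xcl1 UMIs came from 1 cell. The Gzmk/Ctla2a cluster, highest for Ccl5, held 1 Xcl1 UMI in its 437 cells. In CD4+ Tc, Xcl1 was carried by few cells: the Serpina3f/Pdcd1 cluster had 52.3, 70.1, 16.7 and 275 CPM, and in Havcr2fl/fl replicate 2, 72 of the 103 UMIs behind the last value came from 1 cell, without which the level was 83.9 CPM. In Havcr2fl/fl;E8icre/+ replicate 1, 62 of the 69 UMIs came from 1 cell, without which the level was 5.32 CPM. In precursor memory-like CD4+ cells of Havcr2fl/fl replicate 2, 29 of the 41 Xcl1 UMIs came from 1 cell (268 CPM with it, 81.1 without). Treg-like cells held no Xcl1 UMI in any library, which allows up to 12.7 to 76.8 CPM per library.

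How a level arose also differed between genes. In TTEX-like cells thinned to 2000 UMIs, 61.9% ± 11.2 (SD, n = 4) held a Ccl3 UMI (79.2% without thinning), and a positive cell held 5.16 ± 1.65 of them. The Gzmk/Ctla2a cluster had Ccl3 in 39.8% ± 13.0 of cells with 2.06 ± 0.70 UMIs each. Ccl4 was found in more cells of both clusters, in 71.5% ± 9.61 of TTEX-like cells and in 66.2% ± 9.08 of Gzmk/Ctla2a cells. Serpina3f/Pdcd1 CD4+ cells showed another pattern, few positive cells with many UMIs: 16.6% ± 7.36 of them held Ccl3, at 4.94 ± 1.84 UMIs per positive cell, close to the TTEX-like value. Whether these positive cells are the cytotoxic CD4+ cells found at a higher resolution was not tested. For Ccl5, 99.4% ± 1.16 of Gzmk/Ctla2a cells and 99.1% ± 0.84 of TTEX-like cells were positive, so that the amount per cell separated them, with 91.7 ± 16.1 against 58.8 ± 4.37 UMIs. Xcl1 was positive in 20.2% ± 8.93 of TPEX-like cells (28.8% without thinning) with 2.49 ± 0.57 UMIs each. In non-Tc clusters the thinned share was 0.260% to 4.28% for Ccl3, 0.945% to 2.14% for Ccl4, 4.19% to 8.07% for Ccl5 and at most 0.140% for Xcl1, after the removal of cells under 2000 UMIs (206 of 4280 CD8+ Tc, 88 of 1766 CD4+ Tc and 135 of 4697 other cells), at higher median depths (13058 to 19220.5 UMIs per cell, against 3028 to 6974.5 in CD8+ Tc). Part of the non-Tc Ccl3 came from a basophil or mast cell cluster that itself carried the gene. Without its 190 cells the share was 0% to 2.10% for Ccl3 and 0.675% to 1.26% for Ccl4. The Ccl3 share of TPEX-like cells, 2.78% ± 2.28 with a range of 1.17% to 6.09%, overlaps that background, as does the 0.431% ± 0.862 of precursor memory-like CD4+ cells. The Ccl4 share of TPEX-like cells, 6.21% ± 2.76 with a range of 3.47% to 9.72%, lies above that background in all 4 libraries after thinning. Without thinning the ranges overlap, at 5.42% to 14.5% in TPEX-like cells and 3.79% to 8.38% in all non-Tc clusters. Thinning takes more UMIs from the deeper non-Tc cells, so this comparison cannot show whether the TPEX-like Ccl4 share exceeds free RNA.

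**Figure D2:**
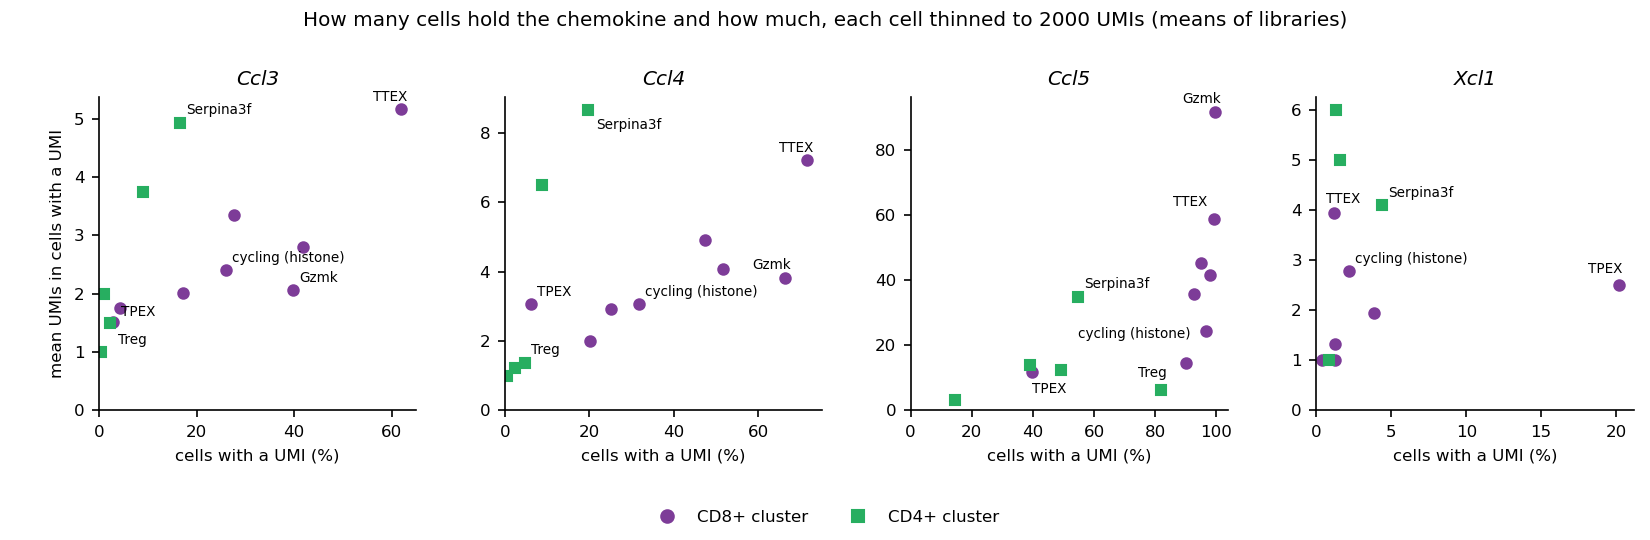
Share of cells with a UMI (x axis, percent) against the mean number of UMIs in those cells (y axis), each cell thinned to 2000 UMIs, as means over libraries with at least 10 cells of the cluster; circles are CD8+ clusters and squares CD4+ clusters. TTEX-like cells combine a share of 61.9% with 5.16 Ccl3 UMIs per positive cell, whereas the Serpina3f/Pdcd1 CD4+ cluster has 4.94 UMIs in 16.6% of its cells.

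Within CD8+ Tc the transcripts were unevenly spread over cells. The 10% of CD8+ Tc with the most UMIs held 66.8% to 84.0% of all Ccl3 UMIs, 62.9% to 75.1% of Ccl4 and 27.8% to 34.8% of Ccl5 (thinned cells). In CD4+ Tc the same top 10% held 94.8% to 100% of Ccl3 and 59.4% to 83.4% of Ccl5. The highest single cell, a CD8+ Tc of Havcr2fl/fl replicate 1, held 727 Ccl5 UMIs. Ccl3 and Ccl4 occurred largely in the same cells: among CD8+ Tc with Ccl3, 76.8% (mean of 4 libraries) also held Ccl4, against 27.8% of those without, and among CD4+ Tc the shares were 72.5% against 4.80%. In CD8+ Tc, Xcl1 went the other way. Of CD8+ Tc with Xcl1, 5.98% held Ccl3 and 49.9% held Ccl5, against 30.7% and 89.1% of CD8+ Tc without Xcl1. These shares pool clusters, and as few as 9 cells with Xcl1 stood behind a library's value.

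Summed over a library, the source of a chemokine depends on both the level and the number of cells, and in such sums fewer cells of a type and less RNA per cell cannot be told apart. CD8+ Tc, 62.4% of Tc on average, held 83.9% of the Ccl3 UMIs of all Tc (76.1% to 88.4% over libraries), 81.8% of Ccl4, 84.6% of Ccl5 and 73.5% of Xcl1. CD4+ Tc, 26.7% of Tc, held 11.2%, 11.8%, 9.71% and 22.9% of them. TTEX-like cells, 9.65% of Tc, held 37.4% of Ccl3 (23.3% to 49.2%), 31.7% of Ccl4 and 22.4% of Ccl5. TPEX-like cells, 8.69% of Tc, held 47.2% of Xcl1 (23.6% to 71.8%) but 0.605% of Ccl4 and 1.60% of Ccl5. The Gzmk/Ctla2a cluster held 15.5% of Ccl5 with 6.33% of Tc, and the Serpina3f/Pdcd1 CD4+ cluster, 14.3% of Tc, held 9.70% of Ccl3 and 16.8% of Xcl1. No single state thus held most of the Ccl3, Ccl4 or Ccl5 transcripts.

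**Figure D3:**
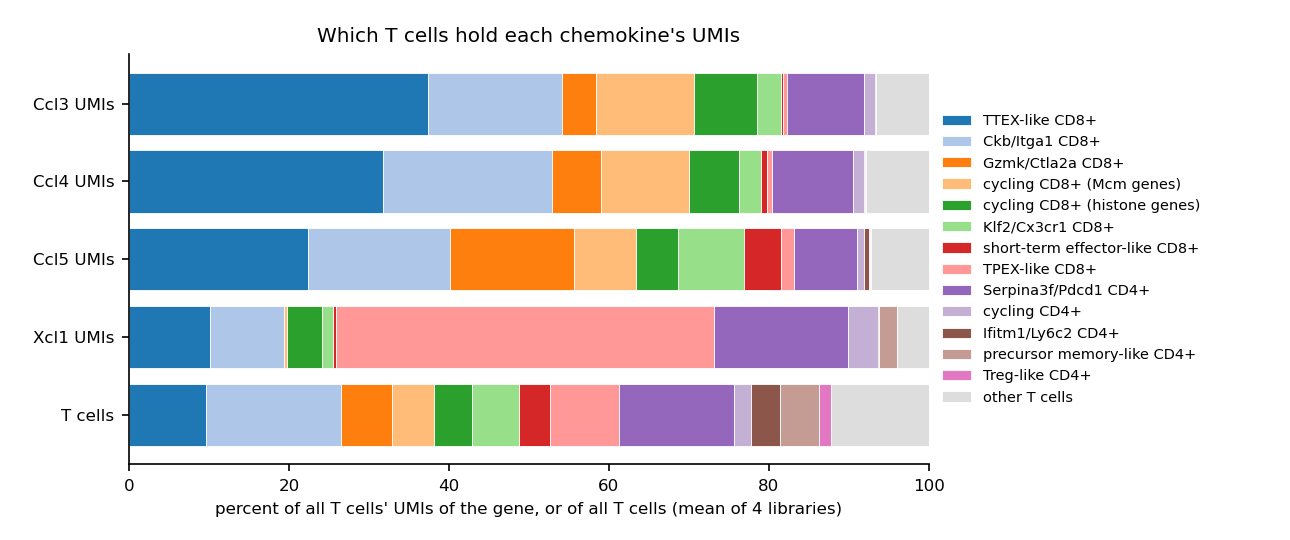
Share of each chemokine's UMIs (upper 4 bars) and of Tc (lowest bar) that each cluster held, in percent of all Tc, as the mean of 4 libraries. TTEX-like cells take 37.4% of the Ccl3 bar and 9.65% of the Tc bar, and TPEX-like cells take 47.2% of the Xcl1 bar and 8.69% of the Tc bar.

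Across 15 clusters of CD8+ and CD4+ Tc, the genes whose mean log2(CPM + 1) followed each chemokine most closely were named by Pearson's r among 7909 genes. These are descriptions over clusters that share libraries and depth, and carry no test. For Ccl3 they were Sh2d2a (r = 0.94), the adhesion receptor gene Adgrg1 (0.94) and Ccl4 (0.93), and for Ccl4 they were Ccl3 (0.93), Setbp1 (0.92) and the TCR-induced nuclear receptor gene Nr4a2 (0.92). Ccl5 followed the granule genes Nkg7 (0.97) and Prf1 (0.95), the latter encoding perforin, and Padi2 (0.94). Xcl1 had no partner as close, with Gm27166 (0.80), Nrgn (0.79) and Lratd1 (0.76) at the top. Between the chemokines, Xcl1 had an r of 0.16 with Ccl3, 0.11 with Ccl4 and −0.08 with Ccl5.

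CD8+ Tc had more Ccl3, Ccl4 and Ccl5 than CD4+ Tc of the same mouse, in 4 of 4 mice for each gene, while Xcl1 was not shown to differ. Ccl3 was at 672, 314, 451 and 950 CPM in CD8+ Tc and at 240, 133, 105 and 495 CPM in CD4+ Tc. Ccl4 was at 1159, 616, 840 and 1663 CPM against 585, 247, 212 and 811 CPM. For both genes the ranges of the lineages overlap across mice, and the difference lies within each mouse. Ccl5 was at 16708, 12942, 16508 and 17925 CPM against 7289, 3745, 5149 and 4136 CPM, without overlap. Xcl1 was at 35.1, 130, 14.3 and 58.2 CPM in CD8+ Tc and at 24.4, 66.6, 8.74 and 152 CPM in CD4+ Tc, and only in Havcr2fl/fl replicate 2 was CD4+ higher.

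**Figure D4:**
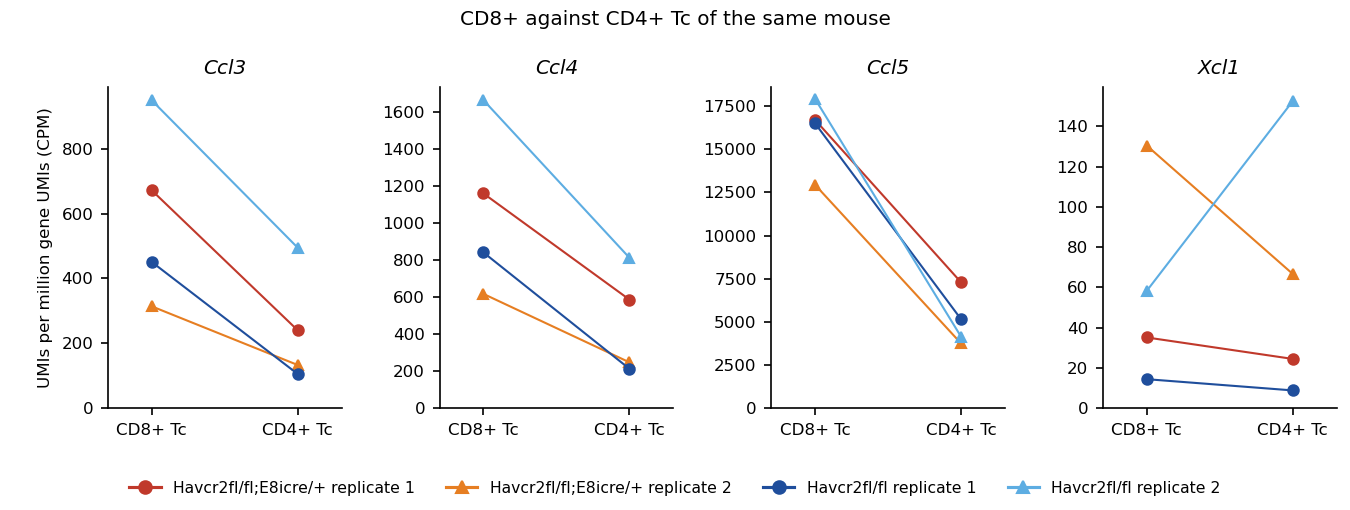
Level of each chemokine (y axis, CPM, linear from 0) in CD8+ and CD4+ Tc of the same mouse, joined by a line per mouse. The lines fall from CD8+ to CD4+ Tc in 4 of 4 mice for Ccl3, Ccl4 and Ccl5, and in 3 of 4 for Xcl1, where that of Havcr2fl/fl replicate 2 rises from 58.2 to 152 CPM.

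In edgeR's quasi-likelihood test with the mouse as a block, Ccl3 was higher in CD8+ Tc by 1.47 ± 0.13 (log2 fold change ± SE, adjusted p = 1.67e-06), Ccl4 by 1.37 ± 0.12 (adjusted p = 1.81e-06) and Ccl5 by 1.75 ± 0.09 (adjusted p = 1.83e-08). For Xcl1 the difference was 0.23 ± 0.30, with a 95% interval from −0.40 to 0.87 (adjusted p = 0.630). Thus 3 of the 4 chemokines passed an adjusted p of 0.05, all upward, where 24.7% of 10895 genes passed in either direction and 12.3% upward. Without the mouse as a block, Ccl3 (1.37, adjusted p = 0.0759) and Ccl4 (1.27, adjusted p = 0.0708) did not pass. The Xcl1 value rested on single libraries: without Havcr2fl/fl replicate 2 it was 0.89 (adjusted p = 5.19e-04), and without Havcr2fl/fl;E8icre/+ replicate 2 it was −0.34 (adjusted p = 0.516). When lineages were assigned by cluster instead of by the cell's own Cd8a, Cd8b1 or Cd4 UMIs, Ccl3 was at 0.54, Ccl4 at 0.02 (adjusted p = 0.946) and Xcl1 at −1.07. Ccl3 and Xcl1 passed the threshold in this setting, Xcl1 with the clusters called CD4+ higher. The clusters then called CD8+ included 1015 cells with CD4 transcripts, 17.9% of their cells, and those called CD4+ included 119 cells with CD8 transcripts, 10.3% of their cells. The former held 6.30% of the Ccl3 and 6.03% of the Ccl4 UMIs of their clusters, and the latter 34.0% and 38.1% of theirs. More of the CD4+ Tc thus lay in clusters called CD8+ (1015 cells) than in clusters called CD4+ (751 cells).

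Since CD8+ and CD4+ Tc differ in their mix of states, matched states were compared as well, a choice made after the data were seen. Between cycling cells of both lineages, Ccl3 (1.78, adjusted p = 0.0071), Ccl4 (1.66, adjusted p = 0.018) and Ccl5 (1.90, adjusted p = 9.2e-09) were higher in CD8+ Tc in the same edgeR test, where 7.33% of 7883 genes were called. Xcl1 was lower there (−1.67, adjusted p = 0.023), and 120 of the 139 Xcl1 UMIs of cycling CD4+ cells of Havcr2fl/fl;E8icre/+ replicate 2 came from 1 cell. At most 9 cycling CD4+ cells per library held a Ccl4 UMI, and the 12 of Havcr2fl/fl replicate 1 held neither Ccl3 nor Ccl4. In Havcr2fl/fl replicate 2, cycling CD4+ cells had 951 Ccl4 CPM. The cycling CD8+ clusters of that library had 1175 (Mcm genes) and 670 (histone genes). For Ccl3 these levels were 575, 867 and 438 CPM. The test sums the cycling CD8+ clusters of a mouse. In this mouse they held 809 and 666 Ccl4 UMIs among 1682196 gene UMIs, against 243 among 255553 in cycling CD4+ cells. The tested Ccl4 level was thus lower in CD8+ than in CD4+ cells there, unlike that of Ccl3 and Ccl5. Between TPEX-like CD8+ and precursor memory-like CD4+ cells, which share Tcf7 and Slamf6, all 4 were higher in the CD8+ cells, where 8.57% of 6595 genes were called: Ccl3 by 3.58, Ccl4 by 1.81, Ccl5 by 3.27 and Xcl1 by 3.19 (adjusted p = 0.0010, 5.5e-05, 5.5e-15 and 6.2e-07). The Ccl3 value compares low levels, at most 43.9 CPM. The Ccl4 value rests on 4, 7, 1 and 9 UMIs in the CD4+ cells and on 21, 30, 30 and 91 in the TPEX-like cells. As stated above, the Ccl4 share of TPEX-like cells was not shown to exceed free RNA. For Xcl1, Havcr2fl/fl replicate 2 was the exception, with 261 CPM in the CD8+ and 268 CPM in the CD4+ cells.

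Other genes of the chemokine system did not move as one group between the lineages. Of 33 other chemokine ligand genes in the files, 4 had enough UMIs to be tested. None was higher in CD8+ Tc and Ccl1, a ligand of CCR8, was lower (−4.16, adjusted p = 1.56e-05). Ccr1, a receptor gene of CCL3 and CCL5, did not pass (−0.81, adjusted p = 0.292). Of 12 other chemokine receptor genes tested (17 listed), 3 were higher, including Cx3cr1 (1.35) and Cxcr6 (0.75), a receptor of tissue-resident Tc, and 7 were lower, including Ccr2 (−1.67), Cxcr3 (−0.94) and the lymph node homing receptor gene Ccr7 (−2.43). Xcr1, the receptor of XCL1, was near 0 in Tc, with 23 UMIs in all CD8+ Tc. It stood at 740, 546, 414 and 776 CPM in a non-Tc cluster of 76 cells (12, 27, 6 and 31 per library) that also had Clec9a and Flt3 raised.

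Among cytotoxic granule genes, 10 of 13 tested were higher in CD8+ Tc, among them Prf1 (2.77), Gzmb (1.96) and Nkg7 (1.28), and Srgn, the proteoglycan core of granules, was lower (−0.65). The median over the 13 was 0.76, beside 0.00 over all genes tested. Of 20 genes induced by TCR signals, 4 were higher, such as Tnfrsf9 (1.09) and Crtam (1.93), and 11 were lower, such as Tnfrsf4 (−2.74) and Cd69 (−1.40), with a median of −0.92. Markers of other lymphocytes that make these chemokines were checked too. Of 10 NK cell markers, 7 had UMIs in CD8+ Tc, at a sum of 53.5 to 122 CPM against 18.3 to 36.4 in CD4+ Tc. Ncr1, Klra4 and Klra8 were at 0 in CD8+ Tc, while Klre1 (2.86) and Fcer1g (2.07) were called higher in CD8+ Tc. Of 5 γδ Tc markers, 4 had UMIs, at a sum of 102 to 195 CPM in CD8+ and 7.45 to 32.6 in CD4+ Tc, with Sox13 at 0. Trdc, the δ chain constant gene, had 81 UMIs in CD8+ Tc, of which 70 lay in TPEX-like cells. The list's sum did not follow Trdc. It was 92.1 to 237 CPM in TTEX-like and 133 to 260 CPM in Gzmk/Ctla2a cells, which held no Trdc UMI, and 63.8 to 116 CPM in TPEX-like cells. Both lists were higher in CD8+ Tc (3 of 5 and 4 of 4 tested genes). Their part in the chemokine difference was not tested.

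The donor genotype was compared next, with 2 libraries against 2. In CD8+ Tc none of the 4 chemokines passed edgeR's test (adjusted p = 1.00 for each), and 0.0275% of 10891 genes did. The log2 fold change of Havcr2fl/fl;E8icre/+ over Havcr2fl/fl was −0.56 for Ccl3 (95% interval −1.43 to 0.31), −0.54 for Ccl4 (−1.35 to 0.27), −0.26 for Ccl5 (−0.90 to 0.39) and 1.16 for Xcl1 (−0.28 to 2.60). The genotypes overlap for Ccl3, with 672 and 314 CPM in the Havcr2fl/fl;E8icre/+ libraries and 451 and 950 CPM in the Havcr2fl/fl libraries, and likewise for Ccl4 and Xcl1. For Ccl5 they overlap narrowly, at 16708 and 12942 CPM against 16508 and 17925 CPM. After the normalization used in the test, the Ccl5 levels of the genotypes do not overlap. How many of the 10891 genes do the same was not counted. The intervals still allow a 2-fold lower Ccl3 or Ccl4. Leaving out a library leaves 1 library in an arm of a genotype comparison, so only the log2 fold changes of such fits are given here. Without the library labelled Havcr2fl/fl;E8icre/+ replicate 1 the values were −1.14, −1.01, −0.40 and 1.85. Without Havcr2fl/fl replicate 2, Ccl3 and Ccl4 changed sign (0.08 and 0.03), and without Havcr2fl/fl;E8icre/+ replicate 2, Xcl1 did (−0.14).

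In CD4+ Tc, in which the cre is not meant to act, none of the 4 passed either (0.0103% of 9671 genes did). The values were −0.75 for Ccl3, −0.37 for Ccl4, 0.19 for Ccl5 and −0.77 for Xcl1, and −1.19, −1.07, −0.32 and −0.24 without the library labelled Havcr2fl/fl;E8icre/+ replicate 1. Without Havcr2fl/fl;E8icre/+ replicate 2, Xcl1 was at −1.78, and in that contrast 62 of the 72 Xcl1 UMIs of the remaining Havcr2fl/fl;E8icre/+ library came from 1 cell. The difference of the genotype effect between CD8+ and CD4+ Tc was −0.07 for Ccl3, −0.31 for Ccl4 and −0.38 for Ccl5, and −0.21, −0.15 and −0.09 without the library labelled Havcr2fl/fl;E8icre/+ replicate 1. For Xcl1 it was 1.87 (95% interval 1.09 to 2.64; adjusted p = 0.385), where 0.0184% of 10895 genes were called. The Ccl5 value was −0.67 without Havcr2fl/fl;E8icre/+ replicate 2. The Xcl1 value was 2.00 without Havcr2fl/fl;E8icre/+ replicate 1, 1.55 without Havcr2fl/fl;E8icre/+ replicate 2 and 2.27 without Havcr2fl/fl replicate 1. It was 0.12 without Havcr2fl/fl replicate 2, whose CD4+ Tc owed 72 of 159 Xcl1 UMIs to 1 cell.

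**Figure D5:**
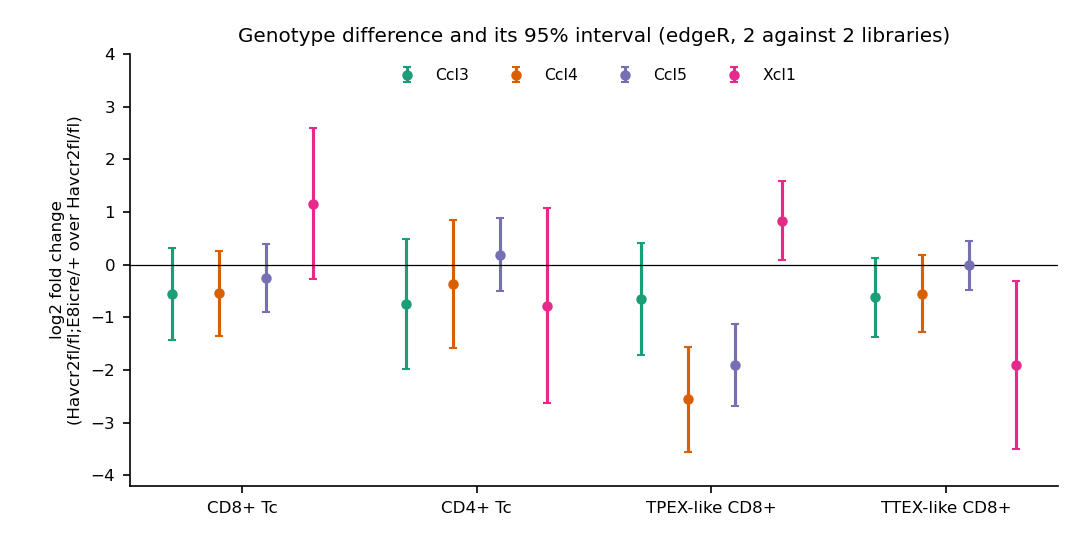
Genotype difference of each chemokine (y axis, log2 fold change of Havcr2fl/fl;E8icre/+ over Havcr2fl/fl; points, edgeR estimates; bars, 95% intervals) in 4 populations of Tc, from 2 libraries against 2. In TPEX-like cells the bars of Ccl4 and Ccl5 lie below 0 (−2.55 and −1.90) and that of Xcl1 above it (0.83), in TTEX-like cells that of Xcl1 lies below 0 (−1.90), and no difference shown passed the adjusted threshold.

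Of single states, TPEX-like and TTEX-like cells were tested by genotype. In TPEX-like cells Ccl4 and Ccl5 were at lower levels in both Havcr2fl/fl;E8icre/+ libraries, without passing the threshold. Ccl4 was at 25.3 and 21.9 CPM in the Havcr2fl/fl;E8icre/+ libraries and at 59.1 and 222 CPM in the Havcr2fl/fl libraries, from 21 to 91 UMIs each. Ccl5 was at 1685 and 668 CPM against 5095 and 3506 CPM. For both genes the genotypes do not overlap. With 2 libraries against 2, the smallest p of an exact permutation is 0.333. How many of the 6946 genes part the genotypes in this way was not counted. The log2 fold changes were −2.55 for Ccl4 (95% interval −3.55 to −1.56, adjusted p = 0.105) and −1.90 for Ccl5 (−2.69 to −1.12, adjusted p = 0.118), and 0% of the 6946 genes tested were called (0 genes, with 420 at an unadjusted p under 0.05). Both had the same direction without the library labelled Havcr2fl/fl;E8icre/+ replicate 1, at −2.60 and −2.64. The cluster itself depended on the clustering. Without integration between libraries, 57.8%, 78.3%, 35.5% and 37.4% of these cells stayed in the TPEX-like cluster, so that more of the Havcr2fl/fl cells left it. In that cluster Ccl5 was at 888 and 608 CPM against 1513 and 619 CPM, which overlap, with a log2 fold change of −0.47 (adjusted p = 0.993), and Ccl4 was at −1.25 (adjusted p = 0.987). At a higher resolution the values were −1.12 for Ccl5 (adjusted p = 0.949) and −2.69 for Ccl4 (adjusted p = 0.318). Both of these clusterings were tested after the data were seen. Leaving out any library gave −3.28 to −1.34 for Ccl4 and −2.64 to −1.42 for Ccl5, with 1 library left in an arm each time. A Ccl4 UMI was present in few TPEX-like cells, between 11 and 14 per library, and the highest of them held 19.0% to 43.3% of the UMIs. Without that cell the Ccl4 levels were at most 20.6 CPM against 33.8 and 157 CPM. Ccl3 (−0.65) and Xcl1 (0.83, 95% interval 0.09 to 1.58, adjusted p = 0.780) did not pass. They were at −0.96 and 1.14 without the library labelled Havcr2fl/fl;E8icre/+ replicate 1, and Xcl1 was at 1.67 without Havcr2fl/fl replicate 2.

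In TTEX-like cells, 0% of 7182 genes were called (0 genes, 267 at an unadjusted p under 0.05). Ccl5 was nearly level between the genotypes, at −0.01 (95% interval −0.48 to 0.46), whereas Ccl3 (−0.62) and Ccl4 (−0.55) spread as widely within as between genotypes. Xcl1 was at −1.90, and without Havcr2fl/fl replicate 2, in which 1 cell held 93 of the 128 UMIs, it was at 1.99. Without the library labelled Havcr2fl/fl;E8icre/+ replicate 1 the values were −1.08 for Ccl3, −0.88 for Ccl4, −0.01 for Ccl5 and −1.27 for Xcl1. Without Havcr2fl/fl replicate 1, Ccl3 was at −1.07, Ccl4 at −1.02 and Xcl1 at −2.74. Without Havcr2fl/fl;E8icre/+ replicate 2, Xcl1 was at −2.39. The smallest p that an exact permutation of 4 libraries split 2 and 2 allows is 0.333. In neither lineage was any gene of the other lists, the chemokine ligands and receptors, TCR-induced, granule, NK cell and γδ Tc genes, called between the genotypes.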

How the data were processed

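Droplet 3′ RNA libraries (Chromium v3.1 with an H-2Kb feature tag) of 4 spleens were analysed. Per the labels, the authors made the deposited UMI count matrices with Cell Ranger 6.1.2 on mm10, and the gene annotation version is not given in the sources used here. The counts were used as deposited and no column of values was left out. The members and gene lists were chosen with earlier results of these data known.

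Barcodes under 500 genes or 1000 UMIs, or with mitochondrial UMIs above 10%, were removed, which left 1213 to 4437 cells per library, and Scrublet doublets were removed (scanpy 1.11.5). Cells were integrated and clustered in Seurat 5.3.0 with 2000 variable genes, chemokine ligands excluded, and 30 dimensions. Clusters in which over 50% of cells had a Cd3 UMI were Tc, and CD8+ and CD4+ Tc were clustered again. A listed marker counted as raised at 0.5 or more on the log2 scale and in at least 10% of the cluster's cells. A cluster took the name of the class with the most raised markers. This needed at least 3 raised markers, and no fewer than the class's markers that were not raised. In addition, no other class could have more markers among the cluster's 10 leading genes. Levels are UMIs of a gene per 1000000 gene UMIs, summed over the cells of a library. Shares were taken after thinning each cell to 2000 UMIs unless stated, with 95% Wilson intervals for single libraries and a limit of 3 counts for zeros.

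UMIs summed per library and class were tested with edgeR 4.0.16 (TMM, filterByExpr, quasi-likelihood test, Benjamini-Hochberg adjustment over all genes tested, threshold 0.05), after a test on simulated data. CD8+ against CD4+ Tc used the mouse as a block. Besides the 4 chemokines, at most 4 genes per list and direction with the smallest adjusted p and a mean of at least 5 CPM qualified for naming, and for each chemokine the 3 genes with the highest r. Other genes named with values (Ccr1, Xcr1, Havcr2) were chosen to describe the receptors or check the labels. Promoters were taken from RefSeq (GRCm38.p6), which matched 2 of the 4 genes. Alternatives included DESeq2 1.42.0, other filters, doublet and donor tag rules, lineage by cluster, replicate blocks and leaving out each library. One result is not reported here.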

Additional observations from a re-analysis of the deposited data

Results flagged for a closer look

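Ccl3 was also found outside Tc. In a non-Tc cluster of 190 cells that carried basophil or mast cell markers, Ccl3 averaged 192 CPM over the 3 libraries with at least 10 such cells (259, 102 and 214 CPM), above the 0 to 75.4 CPM of the other 10 clusters of that kind. After thinning, 17.5% to 32.0% of these cells in the same libraries held a Ccl3 UMI, and the ratio of Ccl4 to Ccl3 UMIs was 0.220 to 0.376, below that of TTEX-like Tc (1.48 to 1.76) in each of the 4 libraries. In Havcr2fl/fl replicate 1, which had 7 such cells, the ratio rested on 12 Ccl3 and 3 Ccl4 UMIs.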

How the results depend on the processing

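The log2 fold changes of the 4 chemokines kept their direction and side of the threshold in 221 recomputed values, newly passed it in 28, no longer passed it in 3 and changed direction in 22. The CD8+ excess of Ccl5 passed in 17 of 17 alternatives, that of Ccl3 in 16 of 17 and that of Ccl4 in 15 of 17. All these counts include the comparisons within cycling and within precursor clusters, made after the data were seen. Those comparisons cover other cells and are not another processing of the same cells. Ccl3, Ccl4 and Ccl5 passed in both. Where leaving out a library left 1 sample in an arm, that sample was assumed to vary like the others. The cause of the changes below was not tested.

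Leaving out single libraries gave 1 to 20 genes called in CD8+ Tc by genotype (3 with all), 4 to 29 in CD4+ Tc (1 with all), 1770 to 2232 between lineages (2686), 5 to 47 for the interaction (2), 7 to 70 in TPEX-like cells (0) and 0 to 28 in TTEX-like cells (0). By genotype in CD8+ Tc, Ccl3 was −1.14 to 0.078, Ccl4 −1.01 to 0.030 and Xcl1 −0.14 to 2.50. In CD4+ Tc, Ccl3 was −1.49 to 0.77, Ccl4 −1.07 to 0.91, Ccl5 −0.32 to 0.56 and Xcl1 −1.78 to 2.37. Between lineages, Xcl1 was −0.34 to 0.89. For the interaction, Ccl3 was −0.73 to 0.48, Ccl4 −0.83 to 0.17, Ccl5 −0.67 to −0.086 and Xcl1 0.12 to 2.27. In TPEX-like cells, Ccl3 was −1.36 to 0.35, Ccl4 −3.28 to −1.34, Ccl5 −2.64 to −1.42 and Xcl1 0.26 to 1.67. In TTEX-like cells, Ccl3 was −1.08 to 0.049, Ccl4 −1.02 to 0.17, Ccl5 −0.055 to 0.033 and Xcl1 −2.74 to 1.99.

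Without a filter on low counts, the genes called were 90 in CD8+ Tc, 51 in CD4+ Tc, 58 for the interaction, 49 in TPEX-like and 30 in TTEX-like cells, and these chemokine values passed: Xcl1 by genotype in CD8+ Tc (1.17), between lineages (0.26), for the interaction (1.85) and in TTEX-like cells (−1.90), Ccl5 for the interaction (−0.39), and Ccl4 (−2.53) and Ccl5 (−1.88) in TPEX-like cells. In CD4+ Tc by genotype, DESeq2 called 5 genes and leaving out cycling clusters 3, while DESeq2 size factors, the stricter cell filter, keeping called doublets, removing doublets at the expected rate and donor tag positive cells gave 0. Keeping called doublets gave 0 in CD8+ Tc. Between lineages, DESeq2 called 1572 genes, and no mouse block 1015, with Ccl3 at 1.37 and Ccl4 at 1.27, neither past the threshold. With lineage by cluster, Ccl4 between lineages was 0.017, Xcl1 −1.07 (past the threshold, with CD4+ higher), and Ccl5 by genotype in CD4+ Tc −0.48. Between matched states Xcl1 was −1.67 (cycling) and 3.19 (precursor). Xcl1 in CD4+ Tc by genotype was 0.078 with the stricter cell filter, and Ccl5 in TTEX-like cells was 0.0036 with chemokine genes kept in the clustering.

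Deviations of same-numbered libraries of the 2 genotypes had an r of −0.13 over 10891 genes in CD8+ Tc and −0.08 over 9671 in CD4+ Tc. With 2 libraries per genotype, crossed pairs have the same r with the opposite sign (0.13 and 0.08). This check therefore cannot show whether libraries were processed in pairs. With the replicate block, 0 genes were called in CD8+ and CD4+ Tc, 27 in TPEX-like cells, including Ccl4 (−2.53) and Ccl5 (−2.01), and 3 in TTEX-like cells. The crossed replicate block, added after the data were seen, called 63 genes in CD8+ Tc.

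Depth set the shares: TTEX-like cells with Ccl3 were 45.4% after thinning to 1000 UMIs and 79.2% without thinning, those with Ccl4 58.2% and 87.9%, and TPEX-like cells with Xcl1 10.9% at 1000 UMIs. By genotype, 2 genes were called in TPEX-like cells at a resolution higher by 0.4 and 0 without integration, where Ccl3 could not be tested, 222 genes had an unadjusted p under 0.05 and Ccl5 was at −0.47. Xcl1 in TPEX-like cells was at 375 CPM without integration, which gave no TTEX-like cluster. Xcl1 could not be tested in TTEX-like cells with chemokine genes kept in the clustering.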
